A study of Micropterus salmoides with 6 samples.

Results

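The thyroid hormone axis was followed through 7 genes of a whole-body RNA sequencing experiment in largemouth bass larvae (Micropterus salmoides, a freshwater fish raised in aquaculture). The genes came from a list of 10 symbols for thyroid hormone production, transport, deiodination and receptors, of which those present in the table of 27166 genes were taken. These were tshba, tshr, tg, tpo, dio2, thrab and thrb; ttr, dio1 and thraa were not analysed here. Larvae of the SP_L group were visibly deformed and had eaten a diet with 0% phospholipid, and larvae of the SP_H group looked normal and had eaten a diet with 8% phospholipid, in both cases for 12 days. Each group had 3 libraries, each from 30 pooled larvae of a tank. Strain, sex and age were not given in the sources used here. Deformity and diet divided the libraries in the same way, so every difference between the groups belongs to both together.

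Thyroid hormone is made in follicle cells that take up iodide and attach it to thyroglobulin, under control of thyrotropin from the pituitary. The secreted prohormone thyroxine is converted by deiodinases inside tissues to the active hormone triiodothyronine, or to inactive products. The active hormone binds nuclear receptors that switch target genes, and in fishes it times the passage from larva to juvenile, including skeletal growth.

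No axis gene passed the test between SP_L and SP_H, and the receptor gene thrab came nearest, with a higher level in SP_L that missed the threshold. Of the 7 genes, 6 had enough counts to be tested, and tpo did not. The quasi-likelihood test of edgeR, with p-values adjusted by Benjamini-Hochberg over all 20627 tested genes, called 0 of the 6 at an adjusted p of 0.05, where 0.0679% of all tested genes were called. DESeq2 also called 0 of the 6, against 2.18% of all genes. At an unadjusted edgeR p under 0.05 there was 1 of the 6, thrab, and 12.7% of all tested genes passed that mark. With 1 gene of 6 the share is close to this background and is no result about the group of genes. The libraries of SP_L and SP_H did not overlap for 1 of the 6, again thrab, against 19.1% of all genes. The median log2 fold change (SP_L over SP_H) was 0.10 over the 6 genes and 0.00 over all genes.

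Levels can be compared between genes only per length, for which the deposited FPKM (fragments per kilobase of gene, scaled to the library total) were used. The receptor gene thrb stood highest, with a mean of 8.94 ± 0.93 FPKM (SD, n = 6 libraries), above 71.6% of the tested genes. Next came the other receptor gene, thrab, with 3.75 ± 0.83 FPKM. These neighbours did not overlap, and thrb was above thrab in 6 of 6 libraries. The thyrotropin gene tshba followed with 0.755 ± 0.378 FPKM, below every library's thrab value. The levels of dio2 (0.388 ± 0.124 FPKM), tshr (0.355 ± 0.091 FPKM) and tg (0.320 ± 0.130 FPKM) overlapped one another, and the range of tshba overlapped that of dio2. Lowest was tpo, with 0.0643 ± 0.048 FPKM, below all tg values. The length that the deposited FPKM imply for thrb was 18291 bases, against 1684 bases for thrab. Over all libraries thrb had 15557 counts and thrab 601, so thrb was also the higher one before division by length. The size of the gap between the receptor genes in FPKM, but not their order, rests on these lengths.

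**Figure D1:**
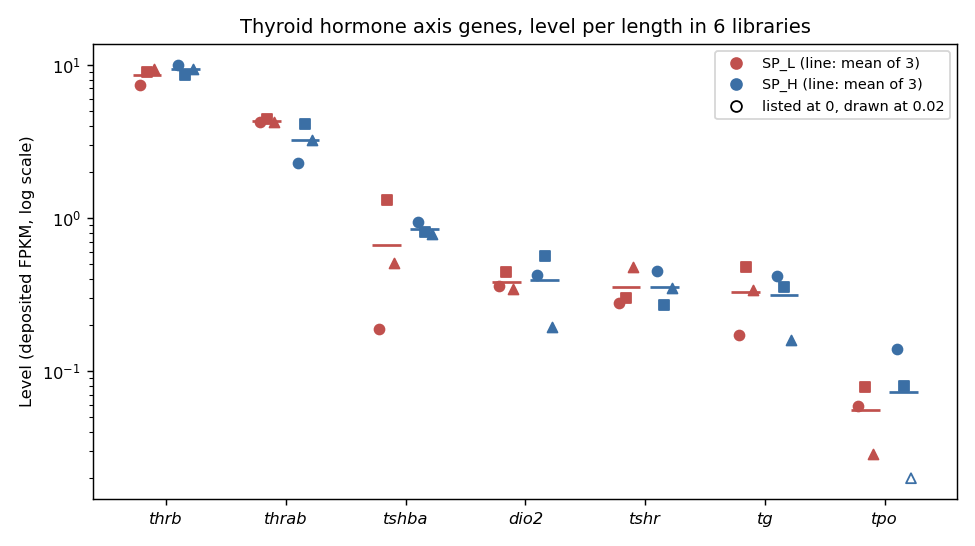
Level per length (deposited FPKM, log axis) of the 7 genes in each library, with SP_L left of SP_H, points for libraries and lines for the mean of 3. The receptor genes thrb and thrab lie above all other genes, and the 1 open symbol is tpo in SP_H replicate 3, listed at 0 and drawn at 0.02.

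Thyrotropin and its control came first in the axis. The gene tshba encodes the beta chain of thyrotropin, the chain that makes this pituitary hormone specific for the thyroid. It had 4, 31 and 11 counts in SP_L replicates 1, 2 and 3 (0.285, 1.94 and 0.723 CPM, counts scaled by TMM library sizes), against 21, 19 and 17 counts in SP_H (1.26, 1.12 and 1.05 CPM). The SP_L libraries thus lay on both sides of the SP_H libraries, which were close together. Both the lowest and the highest of the 6 values were in SP_L, and they differed by 6.82-fold. Counting error alone gives an exact 95% Poisson interval of 0.0777 to 0.73 CPM for SP_L replicate 1 and 1.32 to 2.76 CPM for SP_L replicate 2, which do not meet. Means were 0.984 ± 0.860 CPM in SP_L and 1.14 ± 0.108 CPM in SP_H (SD, n = 3 each). The log2 fold change was -0.20 ± 0.57 (SE; edgeR adjusted p = 0.927), with an approximate 95% interval of -1.48 to 1.09. Its sign depended on single libraries: it was 0.22 without SP_L replicate 1 and -1.16 without SP_L replicate 2 (edgeR adjusted p = 0.914 and 0.472).

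The alpha chain gene cga, whose product pairs with the thyrotropin beta chain and with those of the gonadotropins, had another order of libraries. It was at 0.784, 1.82 and 1.18 CPM in SP_L and at 0.361, 2.47 and 2.47 CPM in SP_H, with its lowest value in SP_H replicate 1. Growth hormone, gh1, a product of other pituitary cells, was picked after its values were seen. It was likewise lowest in SP_H replicate 1, with 3.85, 16.6 and 12.2 CPM in SP_L and 2.1, 21.5 and 9.45 CPM in SP_H. The pituitary transcription factor gene pou1f1, needed for thyrotropes and growth hormone cells in mammals and zebrafish, had 9, 10 and 9 counts in SP_L and 4, 25 and 21 counts in SP_H. It too was picked after its values were seen. By contrast, lhx3 and trhr2, described below, were lowest in SP_L replicate 1, as tshba was. Among all 7 pituitary marker genes in the table, the summed level ran from 19.8 to 38.4 CPM in SP_L and from 24.7 to 56.7 CPM in SP_H, and fshb was at 0 in at least 1 library. The gene lhx3, which also acts in spinal neurons, was the largest part of this sum in every library. It made 20.7 of 24.7 CPM in SP_H replicate 1 and 27.1 of 56.7 CPM in SP_H replicate 2, where gh1 added 21.5 CPM. The sum is therefore no measure of pituitary content alone. Of the 7, 4 were tested, 0 with positive and 4 with negative fitted values (median log2 fold change -0.55). The value of gh1 was near 0, at -0.01 ± 0.68 (edgeR adjusted p = 0.997). Of the 4, 2 had an unadjusted edgeR p under 0.05, against 12.7% of all tested genes. EdgeR called 0 of them and DESeq2 1, lhx3, as lower, where DESeq2 called 2.18% of all tested genes. The genes lhx3, cga and pou1f1 are also in the list of control genes read next, so these lists are not separate observations. In whole-body RNA, fewer cells of a type and less RNA per cell cannot be told apart, and the part of pituitary content in the tshba values was not tested.

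Of 13 genes for hypothalamic and pituitary control that the table holds, 10 were tested, 2 with positive and 8 with negative log2 fold changes, and edgeR called 0 of them. The list's median was -0.20, against 0.00 for all genes. At an unadjusted edgeR p under 0.05 there was 1 of the 10 (10%), against 12.7% of all tested genes. Groups without overlap were found for 2 (20%), against 19.1% of all tested genes. These were trhr2 and lhx3, which are named below for having the lowest p of the list. Both shares are close to the background. The summed level of the list was 59.8 to 67.6 CPM in SP_L and 68.8 to 79.5 CPM in SP_H, which did not overlap. The gene lhx3, described below, is part of this sum, and without it the groups overlap. Thyrotropin-releasing hormone, trh, was even across libraries, with 2.21, 2.2 and 2.43 CPM in SP_L and 2.28, 1.88 and 2.47 CPM in SP_H (log2 fold change 0.04 ± 0.26, edgeR adjusted p = 0.967). The receptor gene trhr2 had 0.499, 0.941 and 0.854 CPM in SP_L and 1.02, 1.53 and 1.24 CPM in SP_H, without overlap, but its counts were few and its log2 fold change of -0.71 ± 0.39 missed the threshold (edgeR adjusted p = 0.495). The transcription factor gene lhx3, which acts in pituitary development and also in spinal neurons, had 14, 18.7 and 15.4 CPM in SP_L and 20.7, 27.1 and 26.2 CPM in SP_H. All SP_L libraries were below all SP_H libraries. Its log2 fold change was -0.62 ± 0.15, which DESeq2 called lower (adjusted p = 0.0246) and edgeR did not (adjusted p = 0.128).

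**Figure D2:**
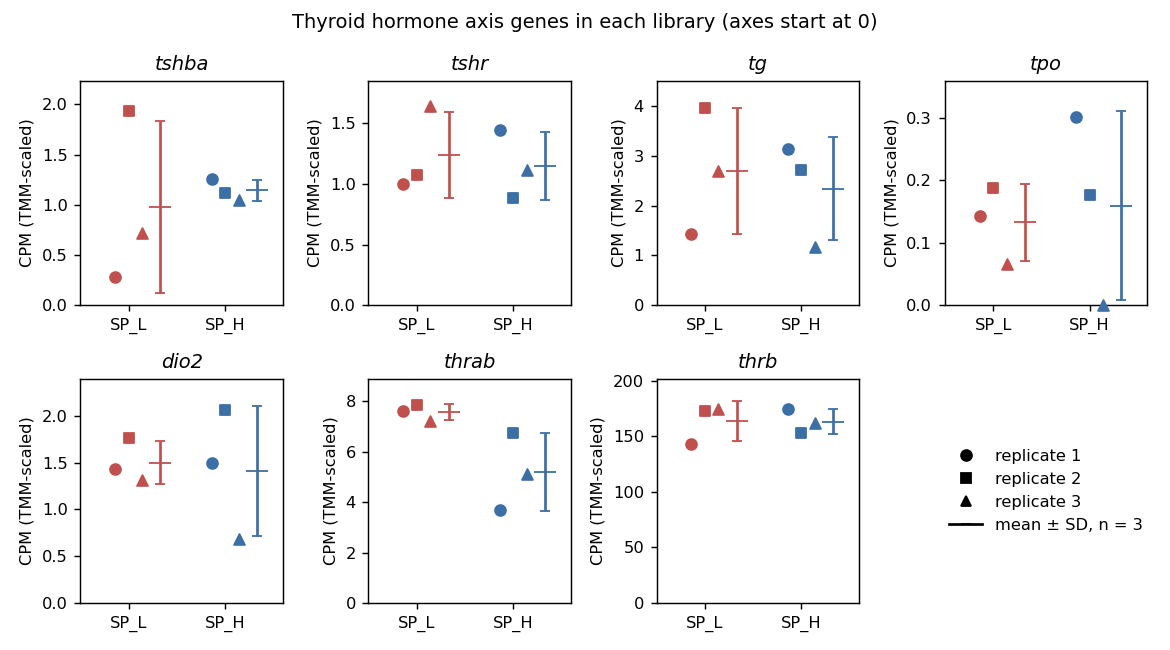
Scaled counts (CPM, axes from 0) of the 7 genes, with SP_L left of SP_H, 1 symbol per replicate and the mean ± SD of 3 libraries beside them. Only in thrab do all SP_L libraries lie above all SP_H libraries, and tshba spreads from 0.285 to 1.94 CPM within SP_L.

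The thyroid genes proper were at low counts and did not separate the groups. Thyroglobulin, tg, the protein on which the hormone is made, had 20, 63 and 41 counts in SP_L (1.43, 3.95 and 2.69 CPM) and 52, 46 and 19 counts in SP_H (3.13, 2.71 and 1.17 CPM). The groups overlapped throughout: SP_L replicate 2 was highest, and SP_H replicate 3 and SP_L replicate 1 were lowest. Within groups the variance between libraries was 8.02 times what counting error alone would give. The log2 fold change was 0.21 ± 0.44 (edgeR adjusted p = 0.892; interval -0.79 to 1.21), and its sign turned without SP_L replicate 2 (-0.18) and without SP_H replicate 3 (-0.11).

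The thyrotropin receptor gene tshr, through which the pituitary drives the gland, had 14, 17 and 25 counts in SP_L and 24, 15 and 18 counts in SP_H. Here the variance within groups was 1.34 times that of counting error. Its log2 fold change was 0.11 ± 0.37 (edgeR adjusted p = 0.938), and the interval from -0.72 to 0.94 leaves room for a fold between 0.606 and 1.92. Thyroid peroxidase, tpo, which attaches iodine to thyroglobulin, had 2, 3 and 1 counts in SP_L and 5, 3 and 0 counts in SP_H. A count of 0 in SP_H replicate 3 allows a level of up to 0.185 CPM, taken as the level of 3 counts in that library, and with 14 counts in all a difference in tpo was not detectable at this depth.

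Of the 10 other genes of the follicle and of hormone synthesis in the table, 7 were tested, 2 with positive and 5 with negative values and a median log2 fold change of -0.06, and both edgeR and DESeq2 called 0. At an unadjusted edgeR p under 0.05 the list also counted 0. The iodide transporter gene slc5a5 had 2.35, 7.21 and 4.86 CPM in SP_L and 9.08, 5.41 and 5.19 CPM in SP_H (log2 fold change -0.44 ± 0.37, edgeR adjusted p = 0.678). As with tg, SP_L replicate 1 was the low library of its group and SP_L replicate 2 the high one. The iodotyrosine deiodinase gene iyd, which recovers iodide and was picked after its values were seen, had 4.77, 7.28 and 5.19 CPM in SP_L and 5.47, 5.65 and 3.03 CPM in SP_H. Its lowest value was in SP_H replicate 3, as for tg. The transcription factor gene hhex, active in thyroid and liver formation, had a log2 fold change of -0.27 ± 0.17 with SP_L below SP_H in all libraries (edgeR adjusted p = 0.553). The groups nearly met, with SP_L replicate 3 at 7.49 CPM and SP_H replicate 2 at 7.53 CPM.

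The profile of tshba across libraries was closest to that of foxe1, a forkhead gene of the pharynx and thyroid primordium that is on the follicle list above. Likeness was measured as the root mean square difference of the 2 log2 CPM profiles, each centred on its mean over the 6 libraries, among 12633 named genes with a mean of at least 1 CPM. For foxe1 it was 0.188, where the profile of tshba itself has a root mean square of 0.722. In counts, foxe1 had 4, 43 and 14 in SP_L and 31, 29 and 21 in SP_H, in the same order of libraries as tshba. Both genes are counted in few reads, and with 6 libraries close profiles are found among so many genes. The gene closest to tg was ucp1 (0.0804), a mitochondrial carrier gene that is on the list of thyroid hormone responsive genes read below. It had 7.91, 19.2 and 12.8 CPM in SP_L and 14.4, 13.0 and 6.55 CPM in SP_H. Closest to tshr was znf831 (0.0367), to dio2 masp2 (0.117), to thrab add2 (0.103) and to thrb top3a (0.0268). The second in each case was vax2 for tshba (0.271), cunh2orf50 for tg (0.197), gpat3 for tshr (0.0922), dhrs7cb for dio2 (0.144), zcchc4 for thrab (0.121) and jag2b for thrb (0.0268).

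**Figure D3:**
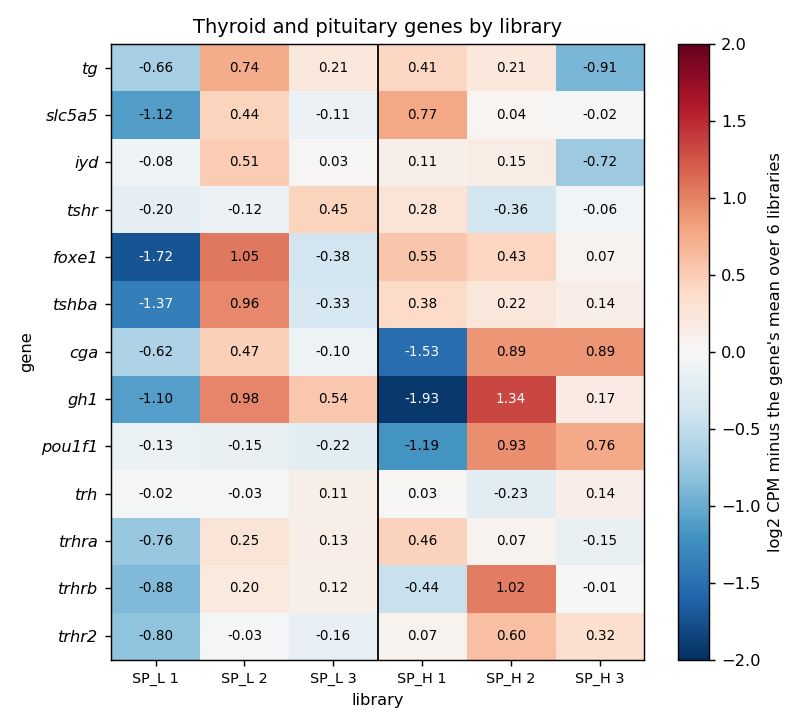
Log2 CPM of 13 thyroid, pituitary and hypothalamic genes in each library, minus the gene's mean over the 6 libraries (rows are genes, columns libraries, SP_L left of the line). The rows of tshba and foxe1 share the same order. They run from lowest in SP_L replicate 1 (-1.37 and -1.72) to highest in SP_L replicate 2 (0.96 and 1.05). The rows of cga, gh1 and pou1f1 are lowest in SP_H replicate 1, and those of trhra, trhrb and trhr2 in SP_L replicate 1. The genes gh1, pou1f1 and iyd were picked after their values were seen.

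Deiodination was followed through dio2, whose enzyme converts thyroxine to the active hormone inside tissues. It had 20, 28 and 20 counts in SP_L (1.43, 1.76 and 1.31 CPM) and 25, 35 and 11 counts in SP_H (1.5, 2.06 and 0.680 CPM). The SP_L libraries lay inside the SP_H range, and SP_H replicate 3 alone was low. Its log2 change, 0.08 ± 0.42, did not pass the test (edgeR adjusted p = 0.959), and was -0.25 without SP_H replicate 3. The same library was low in liver genes: the summed level of 16 hepatocyte markers was 4150 to 4672 CPM in SP_L, and 4490, 4253 and 2605 CPM in SP_H replicates 1, 2 and 3. No hepatocyte marker was at 0 in any library, and 14 of the 16 had positive and 2 negative log2 fold changes (median 0.20). The gene tg was low in SP_H replicate 3 (1.17 CPM), and also in SP_L replicate 1 (1.43 CPM), where the hepatocyte sum was 4150 CPM. The part of liver content in the low tg and dio2 values of SP_H replicate 3 was not tested.

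The opposing enzyme, which inactivates thyroid hormones, is encoded by dio3a. It had 6, 15 and 18 counts in SP_L and 14, 16 and 13 counts in SP_H, and its log2 fold change was -0.01 ± 0.44 (edgeR adjusted p = 0.995; DESeq2 gave it no adjusted p). The ratio of dio2 to dio3a in FPKM was 1.2, 0.675 and 0.402 in SP_L and 0.645, 0.791 and 0.306 in SP_H. This ratio was chosen after its values were seen, which its p-value does not account for. The groups overlapped, and an exact two-sided permutation test on the log2 ratio gave p = 0.6 (0.6 after adjustment over the 2 ratios tested). Of the 6 tested genes for deiodination and for the selenoprotein synthesis that deiodinases need, edgeR and DESeq2 called 0, and the edgeR count at an unadjusted p under 0.05 was also 0. Their median log2 fold change was -0.01. The genes with the lowest p there, secisbp2l and sephs3, which serve selenocysteine insertion and selenophosphate supply, had values of 0.09 ± 0.08 and 0.12 ± 0.14 (edgeR adjusted p = 0.692 and 0.768).

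Among the 7 axis genes analysed, the receptor genes had the highest levels per length. Of the 6 tested genes, 1 (16.7%) had groups without overlap, close to the 19.1% of all tested genes, and this was thrab. It encodes an alpha-type nuclear thyroid hormone receptor, and had 107, 125 and 110 counts in SP_L (7.63, 7.84 and 7.23 CPM) and 61, 115 and 83 counts in SP_H (3.67, 6.76 and 5.13 CPM). The SP_L libraries were close together and above all SP_H libraries, of which replicate 2 came near. Means were 7.56 ± 0.311 CPM in SP_L and 5.19 ± 1.55 CPM in SP_H (SD, n = 3 each). The log2 fold change was 0.54 ± 0.22, or 1.46-fold, with an interval of 1.03 to 2.07-fold, and an unadjusted edgeR p of 0.0378. Over all genes the edgeR adjusted p was 0.349 and that of DESeq2 0.434, so the difference did not pass. It was positive in all 15 alternative fits, which groups without overlap make near certain when 1 library is left out. The values ran between 0.35, reached on log2(FPKM + 1) and without SP_H replicate 1, the lowest library, and 0.78 without SP_H replicate 2. Within groups the variance was 3.98 times that of counting error. How reads shared with related receptor genes were assigned is not stated.

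The beta-type receptor gene thrb, whose product also acts in cone photoreceptors of fishes and mammals and, in mammals, in feedback on the pituitary, gave the most precise fold change of the 6 tested axis genes. It had 2007, 2765 and 2661 counts in SP_L (143, 173 and 175 CPM) and 2909, 2595 and 2620 counts in SP_H (175, 153 and 162 CPM). The groups overlapped, with the lowest library in SP_L and the highest in SP_H. The log2 fold change was 0.01 ± 0.10 (edgeR adjusted p = 0.988), and the interval of the fold was 0.855 to 1.18. With library size alone as the scaling the value was -0.12, but that scaling moves the median of all genes to -0.13.

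The ratio of thrab to thrb, in FPKM, was 0.579, 0.491 and 0.449 in SP_L and 0.228, 0.481 and 0.344 in SP_H. It was chosen after its values were seen, which its p-value does not account for. SP_L replicate 3 was below SP_H replicate 2, so the groups overlapped. Means were 0.506 ± 0.0664 in SP_L and 0.351 ± 0.127 in SP_H (SD, n = 3 each), and the exact two-sided permutation test on the log2 ratio gave p = 0.2 (0.4 adjusted over the 2 ratios), where 3 libraries against 3 cannot give less than 0.1. The difference in log2 ratio was 0.59, and 0.31 without SP_H replicate 1.

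Tissue markers moved between the groups beside the receptor genes. The summed level of 13 skeletal muscle markers was 132881 to 155416 CPM in SP_L and 106034 to 118769 CPM in SP_H, and that of 14 photoreceptor markers 748 to 954 CPM in SP_L and 1075 to 1252 CPM in SP_H. In both lists the groups did not overlap. No muscle marker was at 0 in any library, and among the photoreceptor markers arr3b was. The sum of 13 neuron markers, none of them at 0, was 1505 to 1633 CPM in SP_L and 1566 to 1841 CPM in SP_H and overlapped. The summed muscle markers and thrab were both higher in SP_L, and the part of muscle content in the thrab values was not tested. Photoreceptor markers were lower in SP_L while thrb overlapped.

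Among 19 tested genes of receptor partners and cofactors, which include the retinoid X receptors that pair with thyroid hormone receptors, edgeR and DESeq2 called 0, and 0 were under an unadjusted edgeR p of 0.05. The list had 9 positive and 10 negative values and a median of -0.03. The retinoid X receptor gene rxrgb, at 0.29 ± 0.18, and the corepressor component gene tbl1xr1a, at -0.21 ± 0.12, had the lowest p (edgeR adjusted p = 0.542 and 0.533).

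Among 8 tested genes for transport of the hormone into cells, DESeq2 called 1, slc7a5, and edgeR 0, against 2.18% and 0.0679% of all tested genes. The amino acid exchanger gene slc7a5, whose product also carries thyroid hormones across membranes, had 34.0, 37.7 and 35.7 CPM in SP_L and 45.6, 51.5 and 56.8 CPM in SP_H. All SP_L libraries were below all SP_H libraries. Its log2 fold change of -0.52 ± 0.10 was called lower by DESeq2 (adjusted p = 0.00794) and not by edgeR (adjusted p = 0.0932). The related exchanger gene slc7a8b had 7.41, 11.6 and 10.9 CPM in SP_L and 10.5, 17.3 and 14.7 CPM in SP_H, which overlapped (log2 fold change -0.50 ± 0.22, edgeR adjusted p = 0.388). The heavy chain gene slc3a2a, with whose product these exchangers pair, was picked after its values were seen. It stood at 114, 109 and 121 CPM in SP_L and 105, 98.6 and 99.4 CPM in SP_H (log2 fold change 0.18 ± 0.08, edgeR adjusted p = 0.403). Of all 8 tested transporter genes, 3 were positive and 5 negative, with a median of -0.03 and 0 called by edgeR. Under an unadjusted edgeR p of 0.05 were 2 (25%), against 12.7% of all tested genes.

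Genes known to respond to thyroid hormone, mostly from mammals and frogs, were read last. Of 15 tested, 8 had positive and 7 negative values, the median log2 fold change was 0.01, and edgeR called 0. At an unadjusted edgeR p under 0.05 there were 3 (20%), against 12.7% of all tested genes. All 3 were higher in SP_L, and 6.9% of all genes passed that mark in this direction. The summed level of the list was 825 to 905 CPM in SP_L and 789 to 809 CPM in SP_H, which did not overlap. Of this sum cpt1ab, described below, made 102 to 134 CPM in SP_L and 72.2 to 92.0 CPM in SP_H. The genes gh1 and dio3a, read above, are on this list too. The transcription factor gene klf9, a direct target of thyroid hormone receptors in frogs and mammals that glucocorticoids induce too, had 13.5, 18.2 and 13.0 CPM in SP_L and 12.0, 9.41 and 6.86 CPM in SP_H. The groups did not overlap in CPM, but SP_L replicate 1 and SP_H replicate 1 were both at 4.22 FPKM. Its log2 fold change was 0.66 ± 0.22 (edgeR adjusted p = 0.238, DESeq2 adjusted p = 0.132).

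The fatty acid import gene cpt1ab had 134, 112 and 102 CPM in SP_L and 92.0, 72.2 and 77.1 CPM in SP_H, with all SP_L libraries higher. Its log2 fold change of 0.53 ± 0.13 was called higher by DESeq2 (adjusted p = 0.0107) and not by edgeR (adjusted p = 0.130). The coactivator gene ppargc1a, a regulator of mitochondrial genes, had 8.05, 8.78 and 9.0 CPM in SP_L and 6.49, 5.65 and 6.24 CPM in SP_H, without overlap (log2 fold change 0.49 ± 0.15, edgeR adjusted p = 0.206). Both are also known to respond to fasting, and the part of feed intake in these values was not tested.

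**Figure D4:**
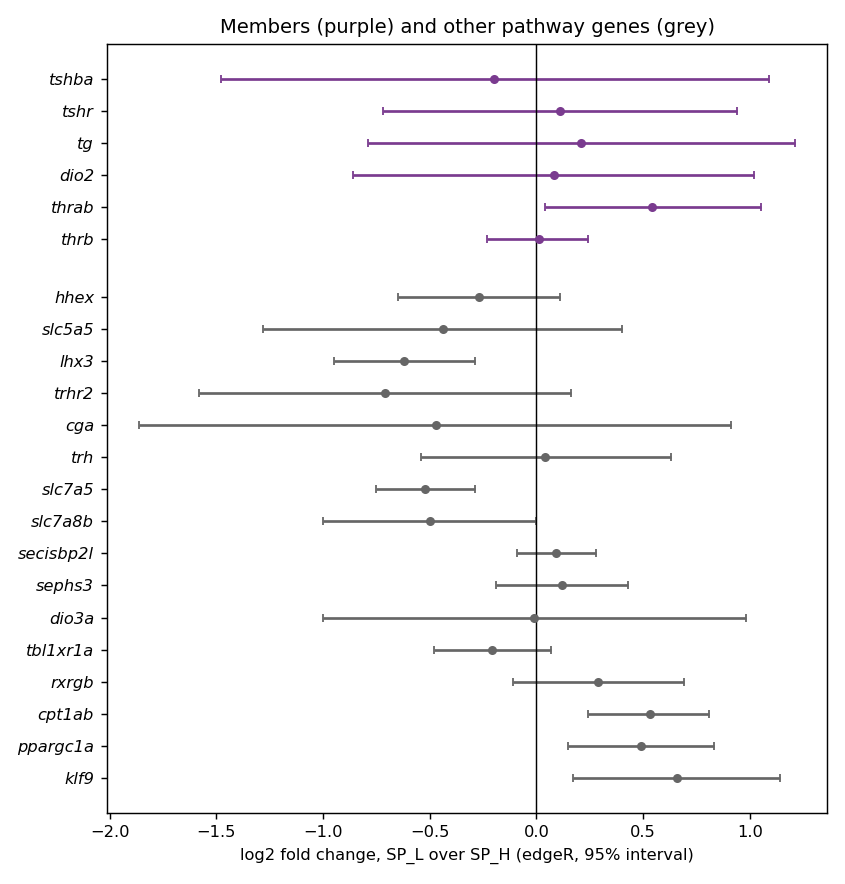
Log2 fold change (SP_L over SP_H) from the edgeR fit, with approximate 95% intervals, for the 6 tested axis genes (purple, above) and for further pathway genes named by rule (grey, below). The interval of thrb is narrow (-0.23 to 0.24) and that of tshba wide (-1.48 to 1.09), and 0 of these genes passed the edgeR test over all genes.

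Over the 6 pathway lists, counting each gene once, 64 genes were tested, 26 with positive and 38 with negative log2 fold changes and a median of -0.03. EdgeR called 0 of them and DESeq2 3, against 2.18% of all genes: cpt1ab higher, slc7a5 and lhx3 lower. An unadjusted edgeR p under 0.05 was found for 6 genes (9.38%), against 12.7% of all tested genes. Groups without overlap were found for 11 (17.2%), against 19.1% of all.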

How the data were processed

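Per the labels' protocols, RNA of whole larvae was extracted with a mirVana kit and made into stranded mRNA libraries for paired-end Illumina sequencing. Tools named in the submitters' processing notes are HISAT2, Trimmomatic, Bowtie2, HTSeq, SAMtools, Cufflinks, StringTie and DESeq; the sources used here give no roles, versions or strand setting. The notes name a mouse genome build for a fish, so no coordinates are given. The authors deposited whole-number counts per gene. The FPKM that the authors deposited equal those counts over a gene length and the library total: of 24734 genes with counts in at least 2 libraries, 24734 had the same implied length in all of these, within 1 part in 10000. Totals were 14958887 to 16922264 counts per library. All 7 axis genes matched symbols of the RefSeq table of largemouth bass.

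Counts were fitted in R 4.3.3 with edgeR 4.0.16 (filterByExpr with minimum count 10 and minimum total 15, TMM scaling, quasi-likelihood F test, Benjamini-Hochberg over all 20627 tested genes, threshold 0.05). The ± beside a fold change is the standard error that the F statistic implies, and intervals follow from it. CPM use the TMM-scaled totals, and log2 CPM a prior count of 2. As alternatives served DESeq2 1.42.0, RLE scaling, library size alone, limma-voom (limma 3.58.1), no filter, a filter at 1 CPM in 3 libraries, leaving out each library, a block for the replicate number, and limma on log2(FPKM + 1) and log2(FPKM + 0.1). The steps were also run on simulated counts, with an outcome that is not given here. P-values measure the spread between pools (median biological coefficient of variation 13.5%); Poisson intervals and floors cover counting error only.

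Members and lists were chosen with earlier results of these data known. Named beside the members were, per pathway list, the called genes or else the 2 with the lowest p, plus klf9, dio3a, cga and trh; 1 further gene of the rule is not reported here. Named too were the 2 genes most alike each member. The genes gh1, pou1f1, iyd and slc3a2a and both ratios were chosen after their values were seen.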

Additional observations from a re-analysis of the deposited data

How the results depend on the processing

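The count of axis genes called was 0 under each of the 15 alternatives, and that of pathway genes was 0 under all but DESeq2, which called 3 (lhx3, slc7a5 and cpt1ab). With the replicate number as a block the counts were 0 and 0 as well, and 2 genes were called over all genes, against 14 without it. Same-numbered libraries deviated from their group means with correlations of -0.0675, -0.0889 and -0.1. Those of differently numbered libraries ran from 0.0161 to 0.0704. Same-numbered libraries thus did not deviate together, but this cannot tell whether the numbers pair tanks, which is not stated. Of the 23 genes followed by fold change, the 14 not named next kept their sign throughout. With library size alone, log2(FPKM + 1) and log2(FPKM + 0.1), all without TMM, the log2 fold changes were -0.02, -0.01 and -0.02 for tshr, -0.12, -0.11 and -0.13 for thrb, -0.09, -0.05 and -0.07 for trh, -0.04, -0.03 and -0.04 for secisbp2l and -0.01, 0.00 and 0.00 for sephs3. For dio2 they were -0.04, 0.00 and 0.04. Leaving out each library gave ranges of -0.18 to 0.50 for tg, -0.15 to 0.31 for tshr, -1.16 to 0.22 for tshba, -0.25 to 0.45 for dio2, -0.05 to 0.09 for thrb, -0.06 to 0.13 for trh, 0.00 to 0.22 for sephs3 and -0.32 to 0.29 for dio3a, and of -0.05 to 0.74 for the log2 difference of the dio2 to dio3a ratio. For thrab the range was 0.35 to 0.78, with edgeR adjusted p from 0.330 to 0.543. Over the alternatives with all libraries its adjusted p ran from 0.296 (limma on log2(FPKM + 1)) to 0.434 (DESeq2). Depth limits tpo most, with 14 counts over all libraries; dio3a had 82, trhr2 98 and tshr 113. For tg and tshba, with 241 and 103 counts, the variance within groups was 8.02 and 5.62 times that of counting error. It was 20.6 times for thrb, with 15557 counts, and 3.07 times for dio2, with 139 counts.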
